A study of Mus musculus with 3 samples.

Results

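The axon guidance genes of the fetal mouse thymus were described in single-cell RNA-seq of thymic lobes isolated at E13–13.5. They comprised every gene whose symbol marks it as an ephrin, an Eph receptor, a semaphorin, a plexin, a neuropilin, a Slit or a Robo. These were 63 of the 27998 genes in the deposited matrices, namely 8 ephrins, 14 Eph receptors, 20 semaphorins, 9 plexins, 2 neuropilins, 3 Slits, 4 Robos and 3 antisense transcripts named for Plxna4 (Plxna4os1, Plxna4os2 and Plxna4os3). The choice used the gene names and no measured value. All embryos were of the C57BL/6 strain, and 1 library was made for each of 3 genotypes, namely wild type (control), Tbx1neo2/neo2 (homozygous for an allele that lowers Tbx1, a T-box gene of the 22q11.2 deletion region) and Foxn1 1089/1089 (labelled Foxn11089/1089, homozygous for a mutant allele of Foxn1, the transcription factor required for thymic epithelial development). The alleles are germline, so every cell of a mutant embryo carried them, and the number of embryos behind each library was not given in the sources used here.

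Ephrins are ligands held on the cell surface, by a lipid anchor for the A class and by a transmembrane stretch for the B class, and they signal to Eph receptor tyrosine kinases on touching cells. Semaphorins are secreted or membrane-bound and signal through plexins, for which neuropilins act as coreceptors of most secreted members, and the secreted Slits bind Robo receptors. In the thymus and its vessels these systems are known for guiding the migration of the organ from the pharynx, for the division between arteries (ephrin-B2) and veins (EphB4), and for positioning thymocytes (semaphorin 3E and plexin D1).

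Cells were divided by 4 surface genes. A cell was placed in the gate of Pdgfra (mesenchyme), Epcam (epithelium), Cdh5 (endothelium) or Ptprc (hematopoietic cells, CD45) where it held at least 2 UMIs of that gene and that gene made up at least 80% of its UMIs of the 4. In the order control, Tbx1neo2/neo2 and Foxn1 1089/1089, which is kept for every set of 3 values that follows, the Pdgfra gate held 660, 1335 and 2180 cells, the Epcam gate 1979, 808 and 3908, the Cdh5 gate 50, 93 and 105, and the Ptprc gate 574, 297 and 307. The gates met their markers, with a summed level of 8 endothelial genes, Cdh5 among them, of 3153, 4789 and 3447 CPM in the Cdh5 gate and of at most 108 in the other gates. CPM is a gene's UMIs over all UMIs of the gate on the usual counts-per-million scale, plain for sums of marker lists, Tbx1, Foxn1 and Pth and after TMM scaling for guidance genes, whose intervals are exact Poisson 95% intervals that cover counting error only.

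The libraries differed in ways that bear on every comparison between them. They held 6410, 5759 and 12447 barcodes and 82936619, 137498422 and 204655055 UMIs, pairs of libraries shared 17 to 28 barcodes, 55.0%, 45.9% and 55.2% of the kept cells fell in a gate, and the median UMIs per gated cell ran from 9478 in the control Pdgfra gate to 61692 in the Tbx1neo2/neo2 Ptprc gate. Median mitochondrial shares were 2.56% to 3.31% in the control gates and 4.89% to 7.46% in the others. The library labelled Tbx1neo2/neo2 held Tbx1 at 4.81 CPM (656 UMIs) against 1.39 (114) in the control and 5.43 (1102) in the Foxn1 1089/1089 library. Both mutant libraries were thus above the control, over all kept cells of libraries with unlike cell make-up. The study states that the embryonic thymus does not express Tbx1, so this count neither bears out nor contradicts the label. The 3′ tags of Foxn1 (38.4, 34.6 and 76.5 CPM) do not read its mutation. Red blood cells gave the level of free RNA, which reached at most 0.0303 UMIs per cell for any guidance gene (Epha3).

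Guidance genes were most often highest in mesenchyme and endothelium and were scarce in hematopoietic cells. At least 10 CPM in all 3 libraries was reached by 21 of the 63 genes in the Pdgfra gate, 15 in the Epcam gate, 15 in the Cdh5 gate and 2 in the Ptprc gate, and 32 stayed below 1 CPM in all 3 libraries of the Ptprc gate. Of the 63, 56 passed the filter on low counts, and 15 were called higher in the Pdgfra gate than in each other gate (background 6.52% of 14742 genes), 3 in the Epcam gate (5.59%), 12 in the Cdh5 gate (4.46%) and 1 in the Ptprc gate (7.88%). A call needed an adjusted p below 0.05 and a 2-fold difference in edgeR's quasi-likelihood test over the 3 libraries, which also differ in genotype. The filter took the gate as group, so a gene could pass it through a single gate. Robo4 and Sema3g did so through the Cdh5 gate and Epha8 through the Pdgfra gate. They are among the 12 and 15 called there, so for them the call is no separate evidence. Outside those gates Sema3g stood at no more than 0.273 CPM and Epha8 at no more than 0.374. In the other direction 27 were lowest in the Ptprc gate (10.8%), 4 in the Cdh5 gate (1.92%), 3 in the Epcam gate (1.46%) and 0 in the Pdgfra gate (1.97%, by edgeR).

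Taken gate by gate, with the same test and threshold, 24 were higher in the Pdgfra than in the Epcam gate (background 14.2%) and 10 lower (13.7%), 27 higher in the Pdgfra than in the Cdh5 gate (15.0%) and 14 lower (10.3%), and 45 higher in the Pdgfra than in the Ptprc gate (26.5%) and 5 lower (19.3%). Between the others, 22 were higher in the Epcam than in the Cdh5 gate (16.0%) and 16 lower (11.9%), 39 higher in the Epcam than in the Ptprc gate (24.7%) and 8 lower (13.8%), and 35 higher in the Cdh5 than in the Ptprc gate (18.7%) and 7 lower (15.1%).

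The other 7 did not pass the filter. Epha6 reached 50 UMIs in 1 gate of 1 library (1.39 CPM in the Foxn1 1089/1089 Pdgfra gate), Epha10, Plxna4os2, Plxnb3, Robo3 and Slit1 reached at most 17 UMIs, and Plxna4os3 had 0 UMIs in all kept cells. Of the 37 that reached 10 CPM in a control gate, 29 had their highest level in the same gate in all 3 libraries. No share over all genes was computed for this count, so it is not read as a trait of guidance genes.

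**Figure D1:**
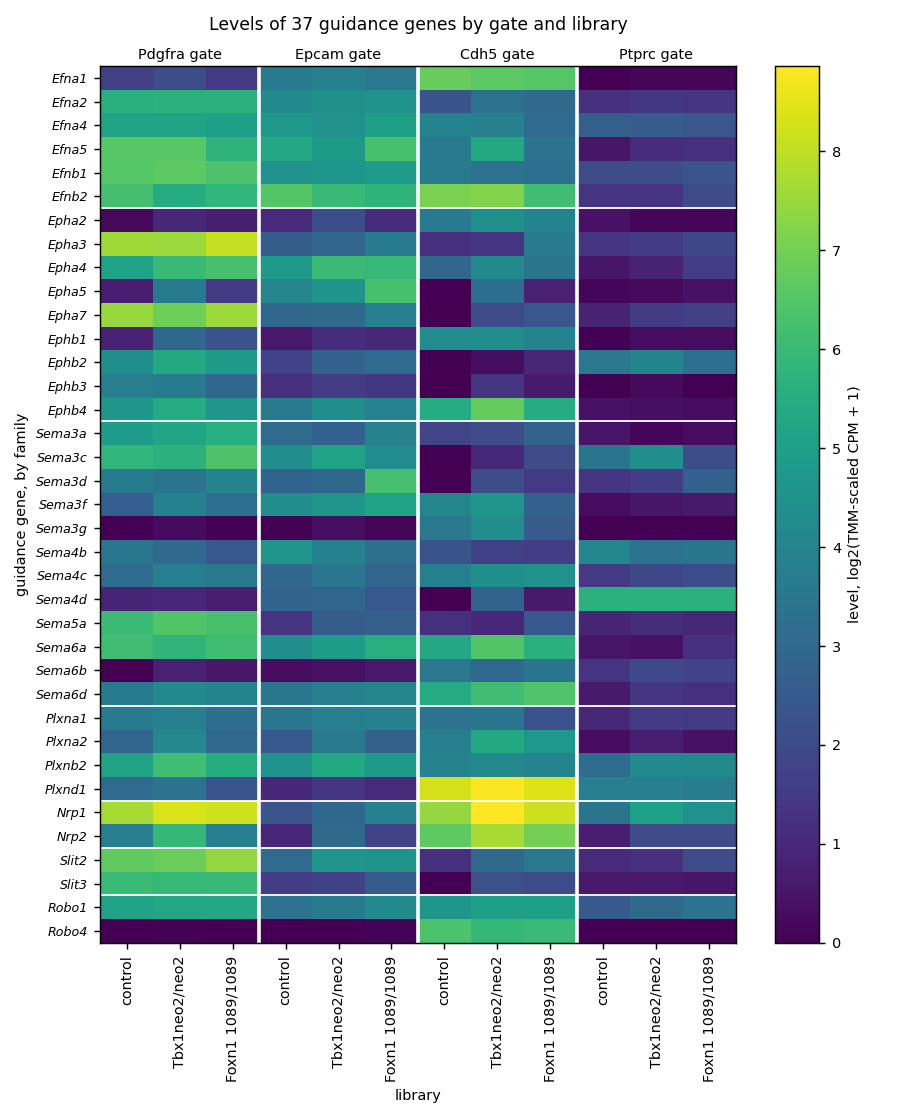
Levels of the 37 guidance genes with at least 10 CPM in a control gate, one row per gene grouped by family and one column per library within each gate; the colour gives TMM-scaled CPM on a log scale. Blocks of high level stand in the Pdgfra and Cdh5 gates, and the Ptprc columns hold 2 genes at 10 CPM or more in all 3 libraries.

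Promoters of 3 genes that each mark a gate are printed, to show the sequence at the start of a receptor highest in endothelium from each of 2 families and of a mesenchymal receptor. They are RefSeq windows of 250 bases before to 50 after the start on GRCm38.p6, which gave sequence for 53 of the 63 genes, and lie at chr9:37401722-37402021 on the plus strand (Robo4), chr6:115994956-115995255 on the minus strand (Plxnd1) and chr16:63864126-63864425 on the minus strand (Epha3). Capitals mark CAGGAA, which with CCGGAA was searched on both strands as a core of ETS factor sites.
Robo4: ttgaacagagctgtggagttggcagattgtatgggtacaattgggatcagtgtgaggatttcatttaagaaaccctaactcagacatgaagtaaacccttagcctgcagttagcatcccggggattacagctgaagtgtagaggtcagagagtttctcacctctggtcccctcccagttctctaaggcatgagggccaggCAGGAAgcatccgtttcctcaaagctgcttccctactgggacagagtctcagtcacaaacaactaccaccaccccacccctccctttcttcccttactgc
Plxnd1: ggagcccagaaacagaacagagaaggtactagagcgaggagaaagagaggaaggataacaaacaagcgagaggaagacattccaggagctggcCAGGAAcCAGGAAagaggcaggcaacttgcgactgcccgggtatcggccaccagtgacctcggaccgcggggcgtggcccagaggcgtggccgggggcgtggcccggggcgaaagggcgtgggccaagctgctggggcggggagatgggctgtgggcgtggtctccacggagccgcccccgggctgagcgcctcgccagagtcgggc
Epha3: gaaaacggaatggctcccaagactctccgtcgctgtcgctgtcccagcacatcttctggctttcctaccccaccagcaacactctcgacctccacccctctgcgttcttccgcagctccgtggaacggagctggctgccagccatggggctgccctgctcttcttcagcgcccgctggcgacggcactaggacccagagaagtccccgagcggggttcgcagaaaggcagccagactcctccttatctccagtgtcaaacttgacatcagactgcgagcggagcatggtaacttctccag
Matches numbered 1 in the Robo4 window, 2 in the Plxnd1 window and 0 in the Epha3 window. Over all promoters, 13591 of 32851 windows of this length (41.4%) held a match, as did 7 of the 15 windows of the Cdh5-highest genes (46.7%) and 4 of the 17 of the Pdgfra-highest genes (23.5%).

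The A-class ephrins and their receptors were divided among 3 gates. Ephrin-A1 (Efna1, on chromosome 3 from 89271733 to 89281142), which endothelium is known to express, stood at 110, 97.7 and 91.2 CPM in the Cdh5 gate and at 11.6, 14.0 and 10.7 in the Epcam gate. The 3 endothelial values lay above every other gate's, and the Epcam gate was lower by 3.04 ± 0.19 on the log2 scale (SE, edgeR adjusted p = 1.3e-06). Its receptor EphA2, which passed 10 CPM in the Cdh5 gate alone, stood there at 11.9, 21.0 and 14.9 CPM.

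EphA3 and EphA7, receptors of the A class, were mesenchymal. Epha3 (chromosome 16, 63543534 to 63864175) reached 193, 184 and 268 CPM in the Pdgfra gate and 5.06, 6.43 and 11.7 in the Epcam gate, a log2 difference of 4.88 ± 0.32 (edgeR adjusted p = 4.4e-06). Epha7 reached 177, 118 and 187 CPM in the Pdgfra gate against 7.04, 7.44 and 13.6 in the Epcam gate, a log2 difference of 4.15 ± 0.29 (edgeR adjusted p = 5.0e-06). In both, the gates were apart in every library. Epha8 was also highest in mesenchyme (6.24, 6.33 and 7.73 CPM), the gate through which alone it passed the filter on low counts.

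Ephrin-A5, a ligand of EphA3, EphA5 and EphA7, had no single gate. Efna5 read 92.6, 93.8 and 53.7 CPM in the Pdgfra gate and 39.9, 27.7 and 77.4 in the Epcam gate, so the order of the gates turned in the Foxn1 1089/1089 library, and the difference was 0.67 ± 0.54 on the log2 scale (edgeR adjusted p = 0.33). EphA1 and EphA5 were the A-class receptors called highest in the epithelium. Epha1 read 9.79, 13.6 and 7.69 CPM in the Epcam gate and at most 1.85 in any other, and exceeded the Pdgfra gate by 2.93 ± 0.40 on the log2 scale (edgeR adjusted p = 2.3e-04). Epha5 (chromosome 5, 84054761 to 84417382) read 15.4, 22.8 and 76.4 CPM in the Epcam gate and 0.594, 11.9 and 1.81 in the Pdgfra gate, a log2 difference of 3.66 ± 0.90 (edgeR adjusted p = 0.0093). The Epha5 call was lost without the control library (log2 difference 3.44, adjusted p = 0.093) and without the Foxn1 1089/1089 library (1.98, adjusted p = 0.075). EphA4, which binds ligands of both classes, was shared by mesenchyme (34.1, 63.3 and 76.5 CPM) and epithelium (27.0, 64.9 and 59.7 CPM).

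Among the B-class ligands, ephrin-B1 was mesenchymal and ephrin-B2 was shared by 3 gates. Efnb1 (X chromosome) read 90.4, 97.0 and 83.4 CPM in the Pdgfra gate and 21.2, 24.2 and 28.6 in the Epcam gate, a log2 difference of 1.88 ± 0.15 (edgeR adjusted p = 8.2e-06). Its receptors EphB2 and EphB3 were highest in the same gate, at 20.5, 40.3 and 27.6 CPM for Ephb2 and 12.9, 11.4 and 6.67 CPM for Ephb3. In the Cdh5 gate Ephb2 was nearly absent (0, 0.253 and 0.934 CPM).

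Efnb2 (chromosome 8, 8617434 to 8661242) read 133 (interval 108 to 161), 144 (132 to 156) and 68.9 (62.1 to 76.4) CPM in the Cdh5 gate, 89.9, 63.1 and 54.0 in the Epcam gate, 75.9, 43.9 and 57.0 in the Pdgfra gate and 1.59, 1.60 and 3.21 in the Ptprc gate. It was highest in endothelium in each library, but the difference from the Epcam gate missed the threshold (log2 0.75 ± 0.30, edgeR adjusted p = 0.073) and that from the Pdgfra gate stayed under 2-fold (log2 0.97 ± 0.31, edgeR adjusted p = 0.031). Its partner Ephb4 (chromosome 5, 137350109 to 137378669) read 43.8, 107 and 44.3 CPM in the Cdh5 gate and 23.5, 43.2 and 24.4 in the Pdgfra gate, a log2 difference of 1.05 ± 0.18 (edgeR adjusted p = 0.0011). Without the Tbx1neo2/neo2 library that difference was 0.86 ± 0.23 and under 2-fold.

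Within the Cdh5 gate Efnb2 was higher in cells with arterial markers in each library, and Ephb4 was not lower in them except in the control. Cells that held arterial markers (at least 4 UMIs over at least 2 genes of Gja4, Gja5, Hey1, Dll4, Sox17 and Cxcr4) numbered 20, 75 and 72, and the cells without them 30, 18 and 33. This rule, like those of the other subsets below, counts UMIs in cells of unequal depth, and the part of depth in subset sizes was not tested. Efnb2 read 233, 172 and 78.0 CPM in the arterial cells and 66.1, 21.7 and 33.8 in the rest, higher in the arterial cells in each case. Ephb4 read 23.3, 107 and 44.2 CPM in the arterial cells and 57.3, 109 and 44.8 in the rest, and the control values rest on 7 and 26 UMIs. After each cell was thinned to 5000 UMIs, 13 of 43 control endothelial cells held Efnb2 alone, 7 Ephb4 alone and 3 both; these were 26, 16 and 27 of 86 in the Tbx1neo2/neo2 library and 24, 13 and 5 of 102 in the Foxn1 1089/1089 library.

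**Figure D2:**
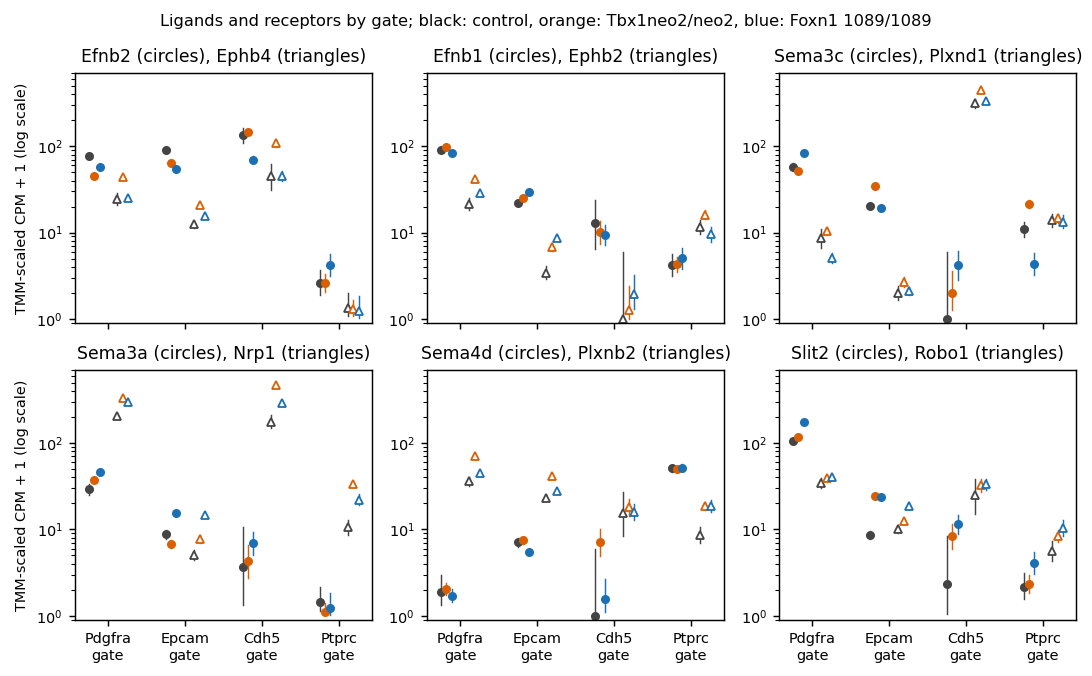
Levels of ligands (circles) and receptors (triangles) in the 4 gates, as TMM-scaled CPM + 1 on a log axis, with 1 point per library (black control, orange Tbx1neo2/neo2, blue Foxn1 1089/1089). Efnb2 is the widely shared ligand, at 43.9 CPM or more in 3 gates, while Plxnd1 stands at 312 CPM or more in the Cdh5 gate alone.

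The secreted semaphorins 3A and 3C were highest in mesenchyme, and several of their receptors in endothelium. Sema3a read 28.1, 36.8 and 45.6 CPM in the Pdgfra gate and 7.74, 5.78 and 14.3 in the Epcam gate (log2 difference 2.07 ± 0.24, edgeR adjusted p = 8.9e-05). Sema3c read 56.3, 51.3 and 82.3 CPM in the Pdgfra gate, 19.3, 33.5 and 18.4 in the Epcam gate, 9.88, 20.3 and 3.33 in the Ptprc gate and 0, 1.01 and 3.18 in the Cdh5 gate. The excess of Sema3c over the Epcam gate was 1.51 ± 0.50 on the log2 scale (edgeR adjusted p = 0.034), a call that was lost without the control library at a like difference (1.5 ± 0.74, adjusted p = 0.19).

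Plexin D1, the endothelial receptor of semaphorin 3E and, with a neuropilin, of semaphorin 3C, was set apart from every other gate. Plxnd1 (chromosome 6, 115954811 to 115995005) read 312 (273 to 354), 444 (423 to 465) and 333 (318 to 349) CPM in the Cdh5 gate, 0.992, 1.66 and 1.10 in the Epcam gate, 7.57, 9.37 and 4.03 in the Pdgfra gate and 12.8, 13.6 and 12.4 in the Ptprc gate. The gates did not overlap, and the Epcam gate was lower by 8.17 ± 0.26 on the log2 scale (edgeR adjusted p = 5.0e-08). At 5000 UMIs per cell a Plxnd1 UMI was seen in 72.1% (exact binomial interval 56.3% to 84.7%), 84.9% (75.5% to 91.7%) and 78.4% (69.2% to 86.0%) of endothelial cells, against 94.0%, 95.7% and 99.0% before thinning and 0%, 0.290% and 0.101% of thinned red blood cells. Its ligand Sema3e was near the limit of detection, at no more than 1.94 CPM in any gate and library.

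The neuropilins differed from each other. Nrp1 read 205, 331 and 295 CPM in the Pdgfra gate and 175, 465 and 287 in the Cdh5 gate, with no detectable difference between them (log2 0.08 ± 0.31, edgeR adjusted p = 0.88), and 4.06, 6.72 and 13.9 in the Epcam gate. Nrp2 was highest in endothelium, with 99.5, 210 and 128 CPM against 12.8, 59.4 and 13.6 in the Pdgfra gate (log2 difference 2.62 ± 0.39, edgeR adjusted p = 7.1e-04). Both were lowest in the epithelium or the hematopoietic cells, and Nrp1 was called lowest in the Epcam gate. Sema3g, a secreted ligand of neuropilin-2, was endothelial itself (10.6, 19.2 and 4.86 CPM on 8, 76 and 26 UMIs). It passed the filter on low counts through the Cdh5 gate alone.

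Membrane-bound semaphorins were spread over all gates. Sema4d (chromosome 13, 51685529 to 51793747), the lymphocyte semaphorin CD100, was the only guidance gene called highest in the Ptprc gate, at 50.1 (45.5 to 55.0), 49.4 (46.2 to 52.8) and 51.0 (46.3 to 55.9) CPM. It was higher there than in the Epcam gate (6.08, 6.49 and 4.47 CPM) by 3.18 ± 0.39 on the log2 scale (edgeR adjusted p = 8.5e-05), and of its plexin-B receptors Plxnb1 was called highest in the Epcam gate (8.35, 16.4 and 12.7 CPM), while Plxnb2 had no single gate (34.9, 69.6 and 43.5 CPM in the Pdgfra gate and 7.72, 17.5 and 17.7 in the Ptprc gate). Sema5a was mesenchymal (64.9, 87.6 and 76.5 CPM against 1.5, 5.08 and 5.4 in the Epcam gate). Sema6d was endothelial (42.5, 70.1 and 84.1 CPM against 11.4, 17.7 and 15.2 in the Pdgfra gate, log2 difference 2.14 ± 0.18, edgeR adjusted p = 1.4e-05), while its receptor Plxna1 had no single gate. Sema6a was shared by mesenchyme (69.3, 55.3 and 69.5 CPM) and endothelium (39.8, 85.8 and 49.0 CPM).

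Slit ligands were mesenchymal, and Robo receptors divided by gene. Slit2 read 103, 115 and 173 CPM in the Pdgfra gate and 7.62, 23.6 and 22.9 in the Epcam gate (log2 difference 2.96 ± 0.28, edgeR adjusted p = 3.0e-05), and Slit3 read 65.3, 60.7 and 63.9 CPM against 2.05, 2.37 and 4.92. Robo1 was shared by mesenchyme (33.7, 38.8 and 39.5 CPM) and endothelium (23.9, 31.7 and 32.1 CPM), with a difference of 0.38 ± 0.18 on the log2 scale (edgeR adjusted p = 0.12). Robo2 was highest in mesenchyme (4.31, 24.4 and 9.39 CPM).

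Robo4, the endothelial Robo (chromosome 9, 37401897 to 37415115), read 80.9 (61.9 to 104), 58.2 (51.0 to 66.3) and 64.5 (57.8 to 71.6) CPM in the Cdh5 gate. Elsewhere it held 2 UMIs in the Tbx1neo2/neo2 Pdgfra gate, 7 in the Foxn1 1089/1089 Epcam gate and 0 in every other library and gate. Robo4 passed the filter on low counts through the Cdh5 gate alone, where it is high, so no p-value is given for it. In the Ptprc gate 0 UMIs allow a level of up to 0.341, 0.171 and 0.344 CPM. Robo3, its neighbour on the chromosome, held 0 to 17 UMIs in any gate and library.

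Ligand and receptor were placed side by side in 46 known pairs, of which 29 had both genes at 10 CPM or more in a control gate. In 16 of these both genes kept the gate of their highest level in all 3 libraries, whether or not a test called that gate highest. No like count was made over other genes. The gate was the same for ligand and receptor in 7 of the 16. These were Efna1-Epha2, Efnb2-Ephb4 and Sema3g-Nrp2 in endothelium, and Efnb1-Ephb2, Efnb1-Ephb3, Slit2-Robo1 and Slit3-Robo1 in mesenchyme. In the other 9 the gates differed. A ligand in mesenchyme and a receptor in endothelium were found for Efnb1-Ephb1, Sema3a-Plxna2, Sema3c-Nrp2 and Sema3c-Plxnd1. The others were Efnb2-Ephb2 and Efnb2-Ephb3 (top levels in endothelium and mesenchyme), Sema3f-Nrp2 (epithelium and endothelium), Sema4c-Plxnb2 (endothelium and mesenchyme) and Sema4d-Plxnb2 (hematopoietic cells and mesenchyme), of which Efnb2, Sema3f, Sema4c and Plxnb2 were not called highest in any gate. These are RNA levels in dissociated cells and say nothing of contact between them.

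Of 54 further genes of the pathway (among them netrin receptors and collapsin response mediators), 53 were in the files and 51 passed the filter. Highest in one gate were 3 in the Pdgfra gate (Dcc, Dpysl4 and Unc5c, against 6.52% of all genes), 1 in the Epcam gate (Flrt1, 5.59%), 7 in the Cdh5 gate (Crmp1, Fyn, Itgb1, Ntn4, Rnd1, Srgap1 and Unc5b, 4.46%) and 1 in the Ptprc gate (Mical1, 7.88%). Dcc, Unc5c and Unc5b are netrin receptors, the last known from vessels.

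Between genotypes there was 1 library a group, so no test was possible, and the values are ratios of 2 libraries with exact intervals for counting error. A gene was read where the 2 libraries held at least 50 UMIs together, and counted where the ratio was at least 2-fold. Both mutant libraries were compared with the same control library, so that the 2 sets of ratios are not independent. In the Tbx1neo2/neo2 library, 15 of 49 guidance genes were higher in the Pdgfra gate (background 12.2% of 12646 genes) and 0 lower (4.72%), 13 of 49 higher in the Epcam gate (8.12%) and 0 lower (7.16%), 8 of 21 higher in the Cdh5 gate (16.0%) and 0 lower (8.25%), and 4 of 17 higher in the Ptprc gate (5.03%) and 0 lower (5.88%). The median log2 ratio of the guidance genes was 0.69, 0.56, 0.72 and 0.51 in these gates, against 0.21, 0.13, 0.11 and 0.03 over all genes read. The cells of this library were also the deeper ones, at a median of 25681 against 9478 UMIs in the Pdgfra gate and 45963 against 16582 in the Epcam gate, and the part of depth in these ratios was not tested.

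In the Foxn1 1089/1089 library, 5 of 44 guidance genes were higher in the Pdgfra gate (4.87%) and 1 lower (3.84%), 17 of 51 higher in the Epcam gate (13.6%) and 1 lower (9.23%), 2 of 22 higher in the Cdh5 gate (10.9%) and 0 lower (5.18%), and 5 of 14 higher in the Ptprc gate (6.13%) and 2 lower (7.74%). The median log2 ratio was 0.18, 0.63, 0.20 and -0.01, against 0.14, 0.12, 0.16 and -0.03 over all genes. Over the further pathway genes, 11 of 47 were higher (13.6% of all genes) and 3 lower (9.23%) in the Epcam gate. In the Epcam gate of the Tbx1neo2/neo2 library 5 of 46 were higher (8.12%) and 1 lower (7.16%). Without the cells that held 2 UMIs of another tissue's markers, which left 113, 16 and 156 epithelial cells and few genes to read, 0 of 1 guidance gene was higher in the Tbx1neo2/neo2 Epcam gate (3.1% of all genes read) and 4 of 13 in the Foxn1 1089/1089 Epcam gate (4.43%). The neuron list used there summed to 1209, 601 and 966 CPM in the Epcam gate, of which Stmn2 alone gave 1203, 590 and 943. Epithelial cells with Stmn2 were thus left out too, so this setting cannot separate other tissues from epithelium. Leaving out the cells with 4 UMIs over 2 genes of another tissue's list instead gave 14 of 45 (6.89%) and 15 of 48 (9.11%).

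**Figure D3:**
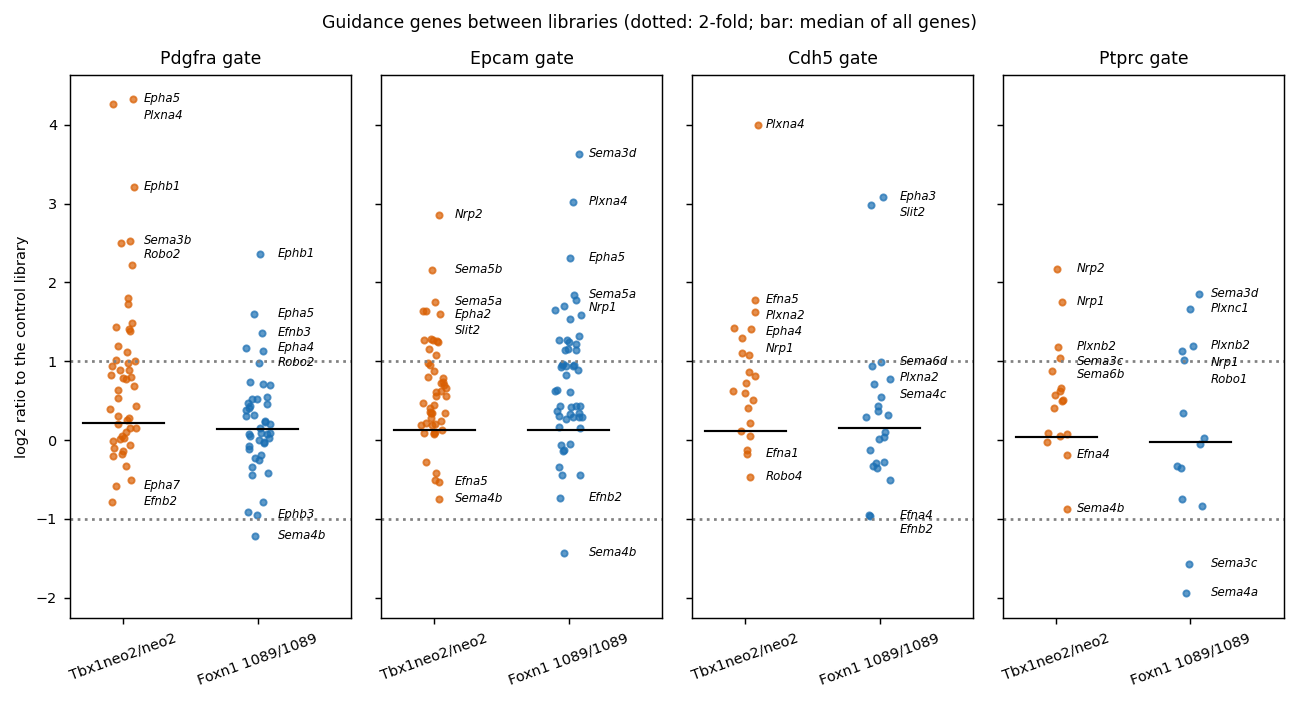
Log2 ratio of each guidance gene to the control library in the 4 gates, for genes with at least 50 UMIs over the 2 libraries; dotted lines mark 2-fold and the bar marks the median of all genes. In the Tbx1neo2/neo2 library 15 of 49 lie above the upper line in the Pdgfra gate and 0 below the lower, and in the Foxn1 1089/1089 library 17 of 51 lie above it in the Epcam gate.

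Sema3d, which encodes a secreted semaphorin, had the largest ratio of the Foxn1 1089/1089 library in the Epcam gate. The gene (Sema3d, chromosome 5, 12383385 to 12588948) read 6.18 (5.34 to 7.11), 6.58 (5.87 to 7.35) and 76.1 (74.4 to 77.8) CPM, and 7736 UMIs against 193 in the control gave a log2 ratio of 3.62 (3.42 to 3.84). The parathyroid hormone gene Pth was also highest in the Foxn1 1089/1089 library, at 689, 0.0471 and 6244 CPM in the Epcam gate. From the control to the Tbx1neo2/neo2 library Pth fell and Sema3d did not. All 4 genes of the parathyroid list summed to 953, 0.777 and 8267 CPM, with Gcm2 at 0 in the Tbx1neo2/neo2 library. Cells that carried this list numbered 27 and 622 in the control and Foxn1 1089/1089 libraries and 0 in the Tbx1neo2/neo2 library, and Sema3d read 347 and 282 CPM in them (log2 ratio -0.30, -0.58 to -0.00). They held 6741 of the 7736 UMIs. In red blood cells, which give the level of free RNA, the parathyroid list summed to 56.5, 0 and 826 CPM. The part of free RNA in these cell numbers, and in the levels within these cells, was not tested. The thyroid list marked 3, 109 and 6 cells. In the epithelial cells outside the parathyroid and thyroid lists Sema3d read 2.91, 7.75 and 12.8 CPM, a log2 ratio of 2.14 (1.83 to 2.47) for Foxn1 1089/1089 and 1.41 (1.07 to 1.77) for Tbx1neo2/neo2.

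In the Foxn1 1089/1089 library most ephrin-A5 UMIs of the Epcam gate lay in the same cells. Efna5 read 660 and 257 CPM in the cells with the parathyroid list. These cells held 6143 of its 7867 UMIs in the Foxn1 1089/1089 Epcam gate and 196 of 1247 in the control. In the remaining epithelium Efna5 read 33.9, 27.3 and 22.2 CPM. The log2 ratio for Foxn1 1089/1089 thus turned from 0.96 (0.87 to 1.04) over the whole gate to -0.61 (-0.72 to -0.50). EphA5, in contrast, was higher outside those cells. Epha5 read 15.6, 21.1 and 88.3 CPM in the epithelium outside both lists and 38.2 in the Foxn1 1089/1089 cells with the parathyroid list, and its log2 ratio was 2.31 (2.17 to 2.44) over the gate and 2.5 (2.37 to 2.64) outside the lists.

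Further genes were higher in the Foxn1 1089/1089 epithelium. Plxna4, a plexin that pairs with neuropilin-1, held 19 and 503 UMIs (log2 ratio 3.02, 2.37 to 3.77), and its antisense neighbours make these counts uncertain where the strand used in counting is not stated. Epha4 was higher in both mutant libraries, at 27.0, 64.9 and 59.7 CPM (log2 ratio 1.27, 1.16 to 1.38, and 1.15, 1.04 to 1.25). Genes with their high levels in mesenchyme were among the rest, namely Slit2 (1.59), Ephb2 (1.66), Efnb3 (1.7), Nrp1 (1.77) and Sema5a (1.84, log2 ratios). Mesenchymal RNA in the Epcam gate moved with them, since 8 mesenchymal markers summed to 75.9, 160 and 293 CPM there, or 1.17%, 1.89% and 3.73% of their level in the Pdgfra gate. Slit2 in the Epcam gate was 7.36%, 20.5% and 13.2% of its Pdgfra level and Epha3 2.62%, 3.49% and 4.38%; the part of mesenchymal RNA in these ratios was not tested.

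In the Tbx1neo2/neo2 epithelium the highest ratios were those of Nrp2 and the membrane-bound semaphorins Sema5b and Sema5a. Nrp2 read 1.02, 7.44 and 2.55 CPM (log2 ratio 2.86, 2.34 to 3.43), Sema5b 0.512, 2.29 and 1.13 (2.16, 1.40 to 3.02) and Sema5a 1.5, 5.08 and 5.4 (1.76, 1.30 to 2.24). Thyroid markers moved with this gate, since the 5 genes of the thyroid list summed to 2.33, 219 and 3.44 CPM. The 109 cells with that list held 77 of the 109 Sema5b UMIs of the Tbx1neo2/neo2 gate. Outside the thyroid and parathyroid lists the log2 ratio was 2.85 (2.32 to 3.43) for Nrp2 and 1.72 (1.25 to 2.21) for Sema5a.

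Sema4b, a membrane-bound semaphorin, was lower in both mutant libraries. In the Epcam gate Sema4b (chromosome 7, 80186841 to 80226527) read 23.4, 14.0 and 8.68 CPM, in the Pdgfra gate 10.2, 7.19 and 4.39, and in the Ptprc gate 16.7, 9.12 and 9.98, so the control was the highest library in all 3 gates. The log2 ratio for Foxn1 1089/1089 was -1.43 (-1.57 to -1.29) in epithelium, -1.22 (-1.64 to -0.79) in mesenchyme and -0.74 (-1.14 to -0.35) in hematopoietic cells. For Tbx1neo2/neo2 it was -0.74 (-0.90 to -0.59), -0.51 (-0.89 to -0.11) and -0.87 (-1.21 to -0.54). Efnb2 was likewise lower in epithelium, by log2 -0.51 (-0.59 to -0.44) in Tbx1neo2/neo2 and log2 -0.74 (-0.80 to -0.67) in Foxn1 1089/1089, neither of them 2-fold.

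In mesenchyme, several receptors that were rare in the control were higher in the Tbx1neo2/neo2 library. Nrp2 held 86 UMIs in the control and 2477 in Tbx1neo2/neo2, or 12.8 and 59.4 CPM (log2 ratio 2.22, 1.91 to 2.54), with the Foxn1 1089/1089 library at 13.6 CPM. Robo2 held 29 and 1016 UMIs (2.5, 1.97 to 3.09) and Epha5 4 and 496 (4.32, 2.96 to 6.20). Ephb1 held 5 and 287 UMIs (3.21, 1.97 to 4.85), and the ligand Efnb3 44 and 954 (1.81, 1.37 to 2.28). Efnb2 and Epha7 were the lowest ratios, at -0.79 (-0.93 to -0.64) and -0.59 (-0.68 to -0.50). The log2 ratios of Epha3, Slit2 and Slit3 over the gate were -0.07, 0.16 and -0.11.

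The make-up of that gate differed too. The cartilage list summed to 41.8, 158 and 75.3 CPM in it, with Col2a1 at 0.747, 29.3 and 0.997, and the neural crest glia list to 2.84, 12.1 and 4.31, and their part in these ratios was not tested. Cells with the pericyte and smooth muscle list (at least 6 UMIs over at least 3 of 7 genes) numbered 94 of 660, 587 of 1335 and 408 of 2180, and the list summed to 405, 1138 and 350 CPM. Median UMIs per cell in this gate were 9478, 25681 and 14369, and the part of depth in these cell numbers was not tested. In the Tbx1neo2/neo2 library these receptors were higher in the cells without the list than in those with it. Nrp2 read 13.3, 79.7 and 13.5 CPM in the cells without the list and 10.3, 40.0 and 14.0 in those with it. Robo2 read 4.84, 37.4 and 9.98 CPM without the list and 1.72, 11.9 and 7.48 with it, and Epha5 0.538, 18.7 and 2.0 without it and 0.860, 5.39 and 1.19 with it. Efnb2 without the list read 77.0, 34.8 and 57.1 CPM, a log2 ratio of -1.14 (-1.32 to -0.97) for Tbx1neo2/neo2. The Tbx1neo2/neo2 ratio of Epha3 was -0.50 (-0.61 to -0.40) without the list and 0.46 (0.25 to 0.68) with it.

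In endothelium the control rested on 50 cells, so that intervals are wide. Nrp1 held 132 UMIs in the control and 1835 in the Tbx1neo2/neo2 library (log2 ratio 1.41, 1.15 to 1.67), Nrp2 75 and 828 (1.07, 0.73 to 1.44) and Ephb4 33 and 423 (1.29, 0.78 to 1.85). Plxnd1 differed less (0.51, 0.31 to 0.71), and Robo4 was lower, by less than 2-fold (-0.47, -0.89 to -0.04). Plxna4 had 1 control UMI and 84 in the Tbx1neo2/neo2 library (4.0, 1.49 to 9.32). In that gate 6 neuron markers summed to 34.8, 423 and 59.0 CPM, of which Stmn2 alone gave 34.8, 419 and 56.9. The 6 arterial markers summed to 435, 802 and 237 CPM. The part of these markers in the ratios was not tested. Within the arterial cells the log2 ratio of Tbx1neo2/neo2 was 1.16 (0.82 to 1.53) for Nrp1 and 2.19 (1.14 to 3.52) for Ephb4, on 69 and 7 control UMIs.

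For Foxn1 1089/1089, endothelial Efnb2 was lower by a log2 ratio of -0.94 (-1.27 to -0.61) over the gate and of -1.58 (-1.96 to -1.19) within the arterial cells. Sema6d was higher (0.99, 0.47 to 1.55). Efna4, an A-class ephrin, read 14.6, 13.4 and 7.47 CPM, a ratio of -0.97 (-1.96 to 0.15) on 11 control UMIs. Epha3 and Slit2 each had 1 control UMI, with log2 ratios of 3.08 (0.55 to 8.41) and 2.98 (0.44 to 8.31), and 8 mesenchymal markers in the gate summed to 26.1, 147 and 357 CPM.

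Among hematopoietic cells, Nrp1 and Plxnb2 were higher in those with macrophage markers. Cells with the macrophage list (at least 4 UMIs over at least 2 of 6 genes) numbered 19, 35 and 32, and cells with the thymocyte list 377, 250 and 157. Nrp1 read 75.3, 270 and 211 CPM in the macrophage cells and 11.0, 13.6 and 3.40 in the thymocyte cells, and Plxnb2 90.4, 150 and 130 against 5.58, 7.26 and 6.09, with no overlap. Over the whole gate the log2 ratio of Nrp1 was 1.75 (1.42 to 2.09) for Tbx1neo2/neo2 and 1.13 (0.75 to 1.52) for Foxn1 1089/1089, libraries in which the macrophage list summed to 565 and 529 CPM against 162 in the control. Within the thymocyte cells the Nrp1 ratio of Foxn1 1089/1089 was -1.69 (-2.51 to -0.94).

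Sema4a and Sema3c were lower in the thymocyte cells of the Foxn1 1089/1089 library. Sema4a read 11.5, 12.2 and 1.43 CPM in them, a log2 ratio of -3.00 (-4.27 to -1.94) for Foxn1 1089/1089 on 70 and 8 UMIs. Sema3c read 13, 22 and 3.05 CPM, a log2 ratio of -2.09 (-2.94 to -1.32). Plxnc1, the receptor of semaphorin 7A, was higher, at 3.44, 7.51 and 15.2 CPM (2.14, 1.44 to 2.91). The interval of the Sema4d ratio spanned 0, at 50, 50 and 46.2 CPM. Over the whole gate Ephb6, a receptor that lacks kinase activity, read 4.32, 4.56 and 2.41 CPM (-0.84, -1.68 to -0.03 for Foxn1 1089/1089). The thymocyte list itself summed to 750, 869 and 308 CPM in the gate, and its part in these ratios was not tested.

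**Figure D4:**
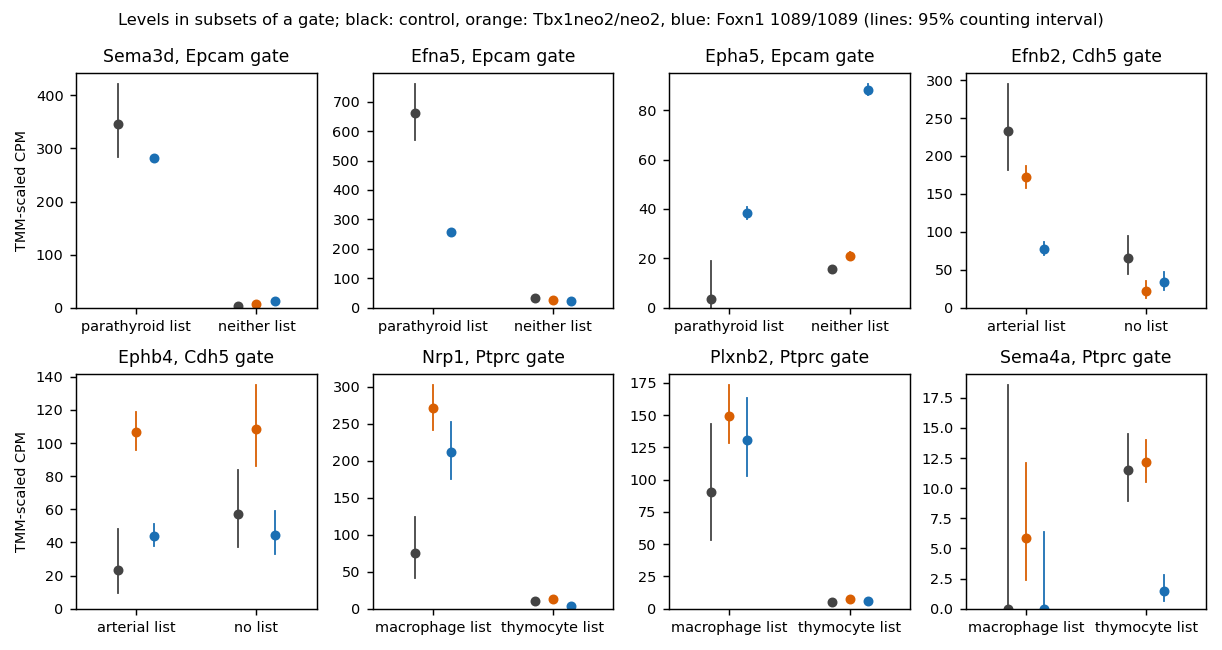
Levels of guidance genes within subsets of a gate, as TMM-scaled CPM on a linear axis from 0 (black control, orange Tbx1neo2/neo2, blue Foxn1 1089/1089; lines are 95% counting intervals). Sema3d stands at 282 CPM or more in the cells with the parathyroid list and at 12.8 or less outside the lists, and Efnb2 is higher in the arterial cells of each library.

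A direct comparison of the mutant libraries, chosen after seeing the data, gave 13 of 52 guidance genes at least 2-fold higher in Tbx1neo2/neo2 than in Foxn1 1089/1089 mesenchyme (background 6.70%) and 1 lower (2.08%), with no test possible. The receptors among them had log2 ratios that included 2.72 (2.34 to 3.11) for Epha5, 2.13 (1.99 to 2.27) for Nrp2 and 1.37 (1.2 to 1.56) for Robo2. In epithelium 4 of 51 were higher (6.73%) and 7 lower (8.26%), Sema3d being the lowest at -3.53 (-3.70 to -3.37). Sema3e was the highest at 2.04 (1.49 to 2.61), on 83 UMIs in Tbx1neo2/neo2 and 43 in Foxn1 1089/1089. In endothelium 7 of 28 were higher (6.38%) and 1 lower (2.55%). Among the higher were Efnb2 (1.06, 0.87 to 1.25) and Ephb4 (1.27, 1.04 to 1.51). In the Ptprc gate 2 of 23 were higher (3.92%), Sema3c at 2.61 (2.06 to 3.21) and Sema4a at 2.44 (1.76 to 3.20), and 4 lower (3.09%).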

How the data were processed

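The authors deposited filtered 10x matrices of UMI counts per gene and cell, 1 per library, made from 3′ single-cell libraries of trypsin-digested lobes. The submitters' processing notes name Cell Ranger 3.0.0, mm10 and Seurat; the strand setting in counting was not stated. The counts were used as deposited. Kept cells had at least 200 genes, under 20% mitochondrial and under 20% hemoglobin UMIs (red blood cells, at least 50%). Cells were not clustered, doublets were not called, and hemoglobin genes were left out of totals. UMIs were summed per gate and library (4 gates by 3 libraries), scaled by TMM and tested with edgeR 4.0.16 (R 4.3.3; filterByExpr, glmQLFit robust, library as a block, Benjamini-Hochberg over all genes tested); DESeq2 1.42.0 served as an alternative. The study's own test over single cells was not used, since cells are not replicates. Nothing says that the libraries stand for more than 1 pool each, so p-values measure the spread between these libraries.

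Ratios between libraries carry exact conditional binomial 95% intervals and shares exact Clopper-Pearson intervals after thinning to 5000 UMIs, which leaves out shallower cells; PCR and capture errors are not covered. Genes named were those with at least 50 CPM in a control gate, the 3 highest and 3 lowest ratios per gate and comparison, listed pairs with Robo4, and genes with 0 UMIs; others (such as Epha1, Epha2, Epha4, Epha8 and Sema3g) were named after their values were seen, and the subsets of gates were defined after the data were seen. The genes and lists were chosen with earlier results of these data known. Gene positions are from GENCODE vM21 on GRCm38. Scripts (Python 3.11.15, numpy 2.4.6, scipy 1.17.1, pandas 2.3.3, matplotlib 3.10.9) were tested on simulated data.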

Additional observations from a re-analysis of the deposited data

How the results depend on the processing

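Each genotype had 1 library, so genotype and library cannot be told apart, and the Cdh5 gate of the control holds 50 cells. The libraries carry no replicate numbers that pair embryos; the library is the block of the gate test. With no replicate block, 13, 3, 10 and 1 guidance genes were highest in the Pdgfra, Epcam, Cdh5 and Ptprc gates, and the calls of Sema3c, Robo2, Plxna2 and Sema7a were lost. Leaving out 1 library at a time gave 13 to 17, 2 to 4, 10 to 12 and 1 to 2. The count in the Ptprc gate was 2 with a strict gate (0 UMIs of the other 3 genes), 2 without the Tbx1neo2/neo2 library and 2 without the Foxn1 1089/1089 library. Epha3 in the Cdh5 against the Ptprc gate (log2 1.22) reversed to -0.80 with the strict gate, and ran from -0.34 (without the Foxn1 1089/1089 library) to 1.83 (without the Tbx1neo2/neo2 library) with 1 library left out; the cause was not tested. Sema7a in the Cdh5 gate was lost against the Ptprc gate without any 1 of the libraries, and Sema6b without the Foxn1 1089/1089 library and Sema4f in the Pdgfra gate without the control library.

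Counts of guidance genes past 2-fold moved as follows, without a tested cause; the share of all genes read that passed at the same setting stands in parentheses. With plain totals 20 were higher in the Tbx1neo2/neo2 Epcam gate (16.2%) and 4 in the Foxn1 1089/1089 Cdh5 gate (13.9%). Less the median of all genes, 1 was lower in the Tbx1neo2/neo2 Pdgfra gate (7.95%), 3 in the Foxn1 1089/1089 Pdgfra gate (5.3%) and 2 in its Cdh5 gate (7.32%). By the mean of per-cell CPM, 2 were lower in the Foxn1 1089/1089 Pdgfra gate (3.42%), 1 in the Tbx1neo2/neo2 Cdh5 gate (6.77%), and 4 higher (14.8%) and 1 lower (4.93%) in the Foxn1 1089/1089 Cdh5 gate. With the strict gate 2 were lower in the Foxn1 1089/1089 Pdgfra gate (3.98%) and 0 higher in its Cdh5 gate (7.58%). With a gate of at least 1 UMI 8 were higher in the Foxn1 1089/1089 Ptprc gate (6.35%). With the gate read after thinning, 1 was higher (11.2%) and 1 lower (5.2%) in the Foxn1 1089/1089 Cdh5 gate, 2 higher (7.94%) and 0 lower (8.03%) in its Ptprc gate, and 1 higher in the Tbx1neo2/neo2 Ptprc gate (5.61%). With a minimum of 200 UMIs fewer genes were read, and 9 (9.03%), 7 (5.8%) and 4 (11.2%) were higher in the Tbx1neo2/neo2 Pdgfra, Epcam and Cdh5 gates, and 3 (3.42%), 0 (6.53%) and 3 (3.88%) in the Foxn1 1089/1089 Pdgfra, Cdh5 and Ptprc gates, with 0 lower in the last (6.46%).

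Leaving out cells with 2 UMIs of a list of another tissue kept 113, 16 and 156 epithelial cells. In the Epcam gate the neuron list was nearly all Stmn2, so epithelial cells with Stmn2 were left out too. Then 0 (3.1%), 4 (7.46%) and 2 (5.22%) were higher in the Tbx1neo2/neo2 Epcam, Cdh5 and Ptprc gates, with 1 lower in the Cdh5 gate (8.33%), and 3 (3.39%), 4 (4.43%), 0 (3.8%) and 3 (7.68%) in the Foxn1 1089/1089 Pdgfra, Epcam, Cdh5 and Ptprc gates, with 3 (4.11%), 0 (6.82%) and 1 (7.45%) lower in the first 3. Of the alternatives chosen after seeing the data, leaving out cells with 4 UMIs and 2 genes of such a list gave 2 lower in the Foxn1 1089/1089 Epcam gate (8.87%) and 0 higher in its Cdh5 gate (8.4%), and a gate of at least 3 UMIs gave 2 lower in its Pdgfra gate (3.61%) and 3 higher in its Ptprc gate (6.08%). Leaving out the subsets with marker lists, for which no share over all genes was computed, gave 2 lower in the Pdgfra gates of both and 2 in the Foxn1 1089/1089 Epcam gate.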
